A study of Bos taurus with 4 samples.

Results

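The genes described here are 30 genes of cholesterol synthesis, its control by SREBP, the transport and storage of cholesterol inside cells, and the LXR receptors and efflux. The list was chosen with earlier results of these data known. Its probes were found by gene symbol in the annotation of the array probes, current or older. The 30 genes had 56 of the 43794 bovine probes, and 29 of them were bright enough to be tested, among 11834 tested genes. One probe stood for each gene, the brightest over all channels, and further probes of a gene are given beside it. Expanded bovine blastocysts from in vitro fertilization were measured (by the labels breed beef, with morulae collected on day 6 and blastocysts on day 7). They had developed from morulae slow-frozen in 1.5 M glycerol (10 min of exposure, ice seeding at -7 °C, cooling at 0.5 °C per min to -35 °C, then liquid nitrogen) or from control morulae kept unfrozen and cultured for a further 24 h. Each of the 4 arrays carried 1 slow-frozen and 1 control pool of 7 blastocysts by the labels. Every value is therefore that of a pool of whole embryos that reached expansion, with no view of single embryos or of morulae that stopped. The labels mark both pools of an array as cryopreserved, although they name 1 of them control. The red dye Cy5 marked the slow-frozen pool on arrays 1 and 2, and the green dye Cy3 marked it on arrays 3 and 4.

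Cholesterol is built from acetyl-CoA through mevalonate, farnesyl diphosphate, squalene and lanosterol. When sterol is scarce in the endoplasmic reticulum, SCAP escorts the precursor of the transcription factor SREBP to the Golgi apparatus, where proteases free its active part, which switches on most enzymes of the pathway. When sterol is plentiful, the INSIG proteins hold SCAP back, and the LXR receptors, which sense oxidised sterols, raise genes of cholesterol efflux. Early embryos need the sterol for the membranes of dividing cells.

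Ratios are given as log2 of slow-frozen over control within an array, so that a negative ratio means less signal in the slow-frozen pool, and -1 is a halving. Across all genes the 4 arrays had little in common: the pairwise correlations of their ratios over 30473 tested probes lay between -0.278 and 0.0376. After adjustment for all tested probes, limma called 0 probes at an adjusted p under 0.05 (smallest adjusted p = 0.9999), while 573 probes had an unadjusted p under 0.05. The share of tested genes past the adjustment was 0%, and 0 of the 29 members passed it. An exact sign-flip permutation test of a gene's 4 ratios cannot go below a p of 1 in 8 and so could call no gene. Per channel, 24638 to 31529 of the 43794 probes lay above the detection limit, and 26 of the 30 members did so in all 8 readings. In pools of whole embryos, fewer cells of a type and less RNA per cell cannot be told apart.

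Blastocysts developed from slow-frozen morulae lay lower than blastocysts developed from control morulae in most enzymes of cholesterol synthesis, by less than 0.5 on the log2 scale each, and 0 of these differences passed the adjustment. Of the 18 enzymes, 15 lay lower and 3 higher. Their median log2 ratio was -0.22, against -0.0036 over all tested genes, of which 6034 of 11834 (51.0%) lay lower. Loess within arrays holds the median of all genes near 0. The list was chosen with earlier results known, so this contrast is a description and no test. The other 11 tested members, which carry control, transport and efflux, were divided into 6 lower and 5 higher, with a median of -0.00089. By limma's unadjusted p under 0.05, 2 of the 29 members lay lower, CYP51A1 and ACAT2, where 1.01% of all tested genes did, and 0 lay higher, where 0.904% did. At a fold of at least 1.5 together with an unadjusted p under 0.05, the study's threshold for slow freezing, there were 0 of 29 members and 0.38% of all tested genes. Below 0 on every one of the 4 arrays were 4 members (ACAT2, FDPS, HSD17B7 and SC5D), where 4.02% of all tested genes were, and above 0 on every array were 0 members, where 3.52% were. The slow-frozen pools all lay below the control pools in level for 1 member, ACAT2, a separation met by 0.389% of tested genes in that direction. The opposite separation was met by 0 members and 0.406% of tested genes.

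**Figure D1:**
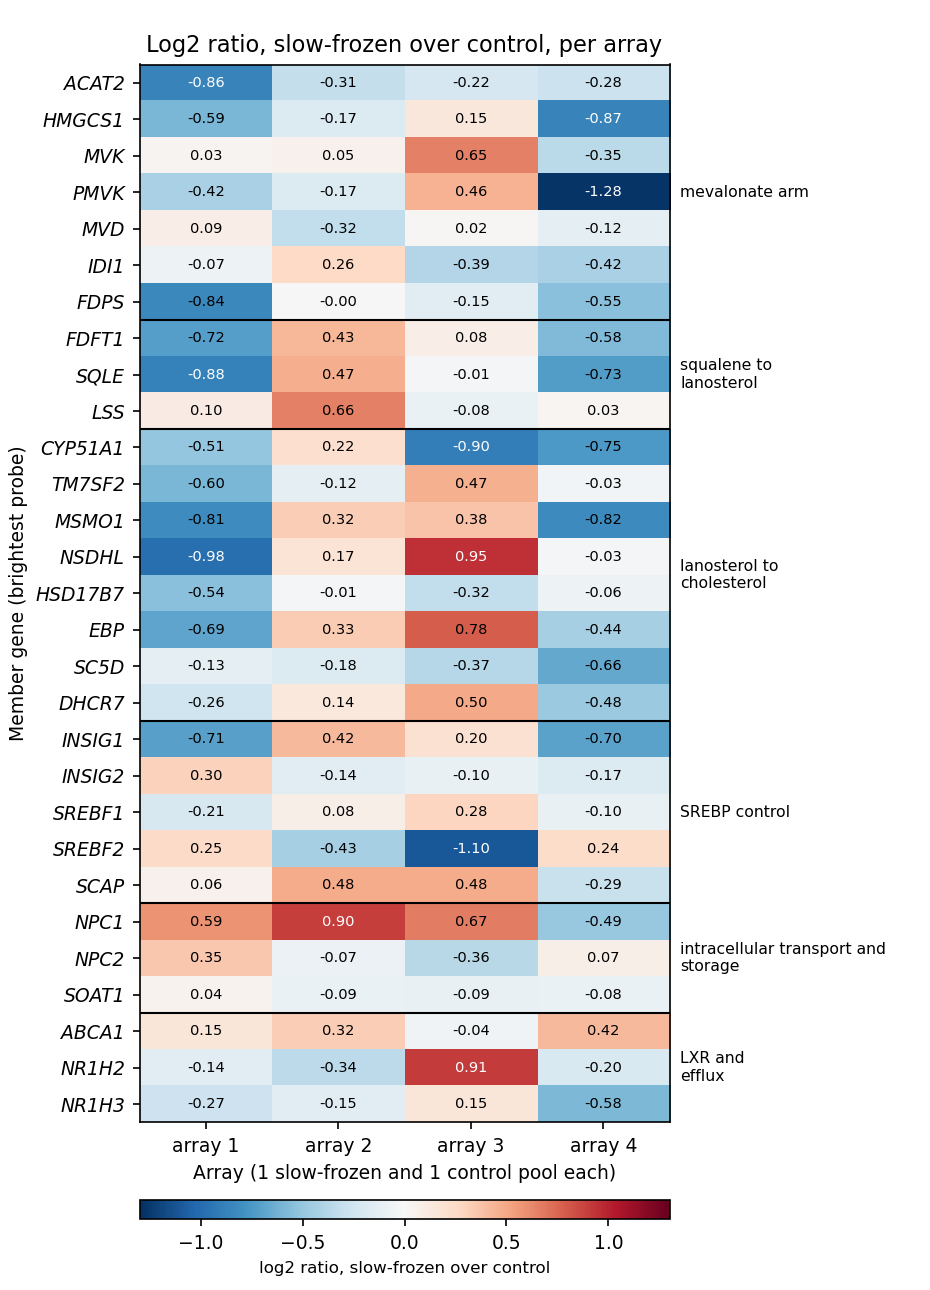
Log2 ratios of slow-frozen over control for the 29 tested members (rows, ordered by role) on each of the 4 arrays (columns), in blue where the slow-frozen pool was lower and in red where it was higher. Of the 18 synthesis enzymes above the SREBP control genes, 15 were lower on array 1 and 17 on array 4, against 8 on array 2 and 8 on array 3.

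The enzymes differed between arrays. The median ratio of the 18 enzymes was -0.57 on array 1, 0.10 on array 2, 0.05 on array 3 and -0.46 on array 4. That of all tested genes stayed between -0.02 and 0.00, where loess within each array sets it. With median centring in place of loess the enzyme median of array 3 was -0.71, and the fitted median of all genes moved to -0.13. Of all 29 members, 19, 14, 13 and 25 lay lower on arrays 1 to 4, where 52.4%, 49.7%, 49.3% and 49.8% of all tested genes did. Each of the 8 enzymes from lanosterol to cholesterol lay lower on both array 1 and array 4. On array 4, NSDHL (-0.03), TM7SF2 (-0.03) and HSD17B7 (-0.06) did so only slightly. The share of all tested genes lower on both arrays was not counted, and these arrays were singled out after their values were seen. The count of 8 therefore cannot be weighed. In every fit with 1 array left out, the dye term was kept, so the other array of its dye orientation had the weight of 2 arrays. With array 1 left out of the fit, 14 of the 29 members lay lower with a median of 0.01, and 9 of the 18 enzymes did. ACAT2 and CYP51A1 were then at -0.28 and -0.30, and 0 members lay lower with an unadjusted p under 0.05 in limma. With array 4 left out, these numbers were 15 of 29 with a median of -0.01, and 10 of 18. Leaving out array 2 or array 3 gave 20 and 24 of 29 lower, with medians of -0.23 and -0.21. Arrays 1 and 4 were labelled in opposite dye orientations, as were arrays 2 and 3.

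Levels per pool were set beside the ratios, although only the ratio within an array was measured directly. Which pool appears to carry a difference depends on the normalization between arrays. Each enzyme's log2 intensity was set against its own mean over the 8 pools, without removing the effect of the dye. The slow-frozen pool of array 1 lay below this mean for 17 of 18 enzymes (median -0.29), and the slow-frozen pool of array 4 likewise for 17 of 18 (median -0.38). The slow-frozen pools of arrays 2 and 3 had medians of 0.21 and 0.05. Among the control pools, the medians were 0.26, 0.14, -0.12 and 0.07 on arrays 1 to 4, so that the control pool of array 1 was high where its slow-frozen partner was low. For the 11 other members all 8 medians lay between -0.17 and 0.10, with the slow-frozen pool of array 4 below the mean for 10 of 11.

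**Figure D2:**
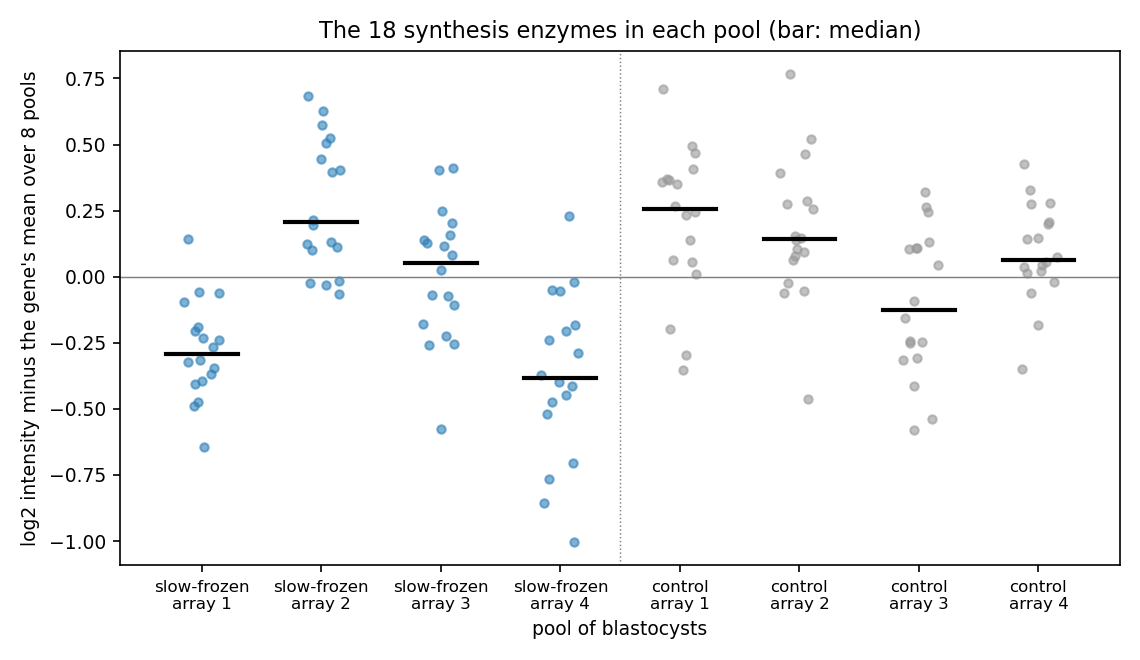
Log2 intensity of the 18 synthesis enzymes in each slow-frozen pool (left) and each control pool (right), as the difference from the gene's mean over the 8 pools; points are genes and bars are medians. The slow-frozen pools of arrays 1 and 4 had medians of -0.29 and -0.38, and the remaining 6 pools had medians between -0.12 and 0.26.

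Some members had the same order of signs over the 4 arrays. Lower on arrays 1 and 4 and higher on arrays 2 and 3, a pattern noticed after the values had been seen, were 7 members: the enzymes FDFT1, MSMO1, NSDHL, EBP and DHCR7 and the control genes INSIG1 and SREBF1. The same signs were found in 10.3% of all tested genes. The reverse signs were found in 2 members, SREBF2 and NPC2, and in 9.92% of all tested genes. Over the 29 members the ratios of arrays 1 and 4 correlated at 0.443, the highest of the 6 pairs of arrays, whereas over all 30473 tested probes the same arrays correlated at -0.0014. Genes are not independent of each other, so this correlation describes these arrays only.

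The mevalonate arm, which leads to farnesyl diphosphate, had the lowest median of the roles, -0.35, with 6 of 7 genes lower. ACAT2, which joins acetyl-CoA units in the first step, had normalised log2 intensities of 11.62, 11.99, 11.84 and 11.77 in the slow-frozen pools of arrays 1 to 4, against 12.48, 12.30, 12.06 and 12.05 in the control pools. The highest slow-frozen pool thus lay under the lowest control pool. Its log2 ratio was -0.42 ± 0.16 (SE, n = 4; 0.748-fold), with limma's unadjusted p = 0.0342 and adjusted p = 0.9999. Array 1 gave -0.86 and the other three arrays between -0.31 and -0.22. A second ACAT2 probe gave -0.08, with 2 of 4 arrays lower.

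HMGCS1, the cytosolic synthase of HMG-CoA, gave a log2 ratio of -0.37 ± 0.20 (SE, n = 4; limma's unadjusted p = 0.114). Its levels were 13.40, 13.74, 13.89 and 12.79 in the slow-frozen pools and 13.996, 13.92, 13.75 and 13.66 in the control pools, so the groups overlapped. The low slow-frozen pools were those of arrays 1 and 4, and its other 3 probes gave ratios of -0.13, -0.01 and -0.00. FDPS, the synthase of farnesyl diphosphate, stood at 12.77, 13.05, 13.23 and 12.64 in the slow-frozen pools, against 13.61, 13.05, 13.38 and 13.19 in the control pools. Its ratio was below 0 on all 4 arrays, by as little as 0.003 on array 2, and the groups overlapped. The fitted ratio was -0.38 ± 0.19 (SE, n = 4; limma's unadjusted p = 0.0821), and its 3 further probes lay between -0.20 and -0.13.

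PMVK, which adds the second phosphate to mevalonate, showed the widest spread of this arm. Its levels were 8.07, 8.34, 8.27 and 7.13 in the slow-frozen pools, against 8.49, 8.52, 7.81 and 8.40 in the control pools. The slow-frozen reading of array 4, the lowest, was under the detection limit. The fitted log2 ratio was -0.35 ± 0.28 (SE, n = 4; limma's unadjusted p = 0.247), it became 0.08 without array 4, and a second probe gave 0.16. IDI1, the isomerase of isopentenyl diphosphate, MVD, the mevalonate diphosphate decarboxylase, and MVK, the mevalonate kinase, had log2 ratios of -0.15 ± 0.14, -0.08 ± 0.15 and 0.10 ± 0.19 (SE, n = 4 each).

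**Figure D3:**
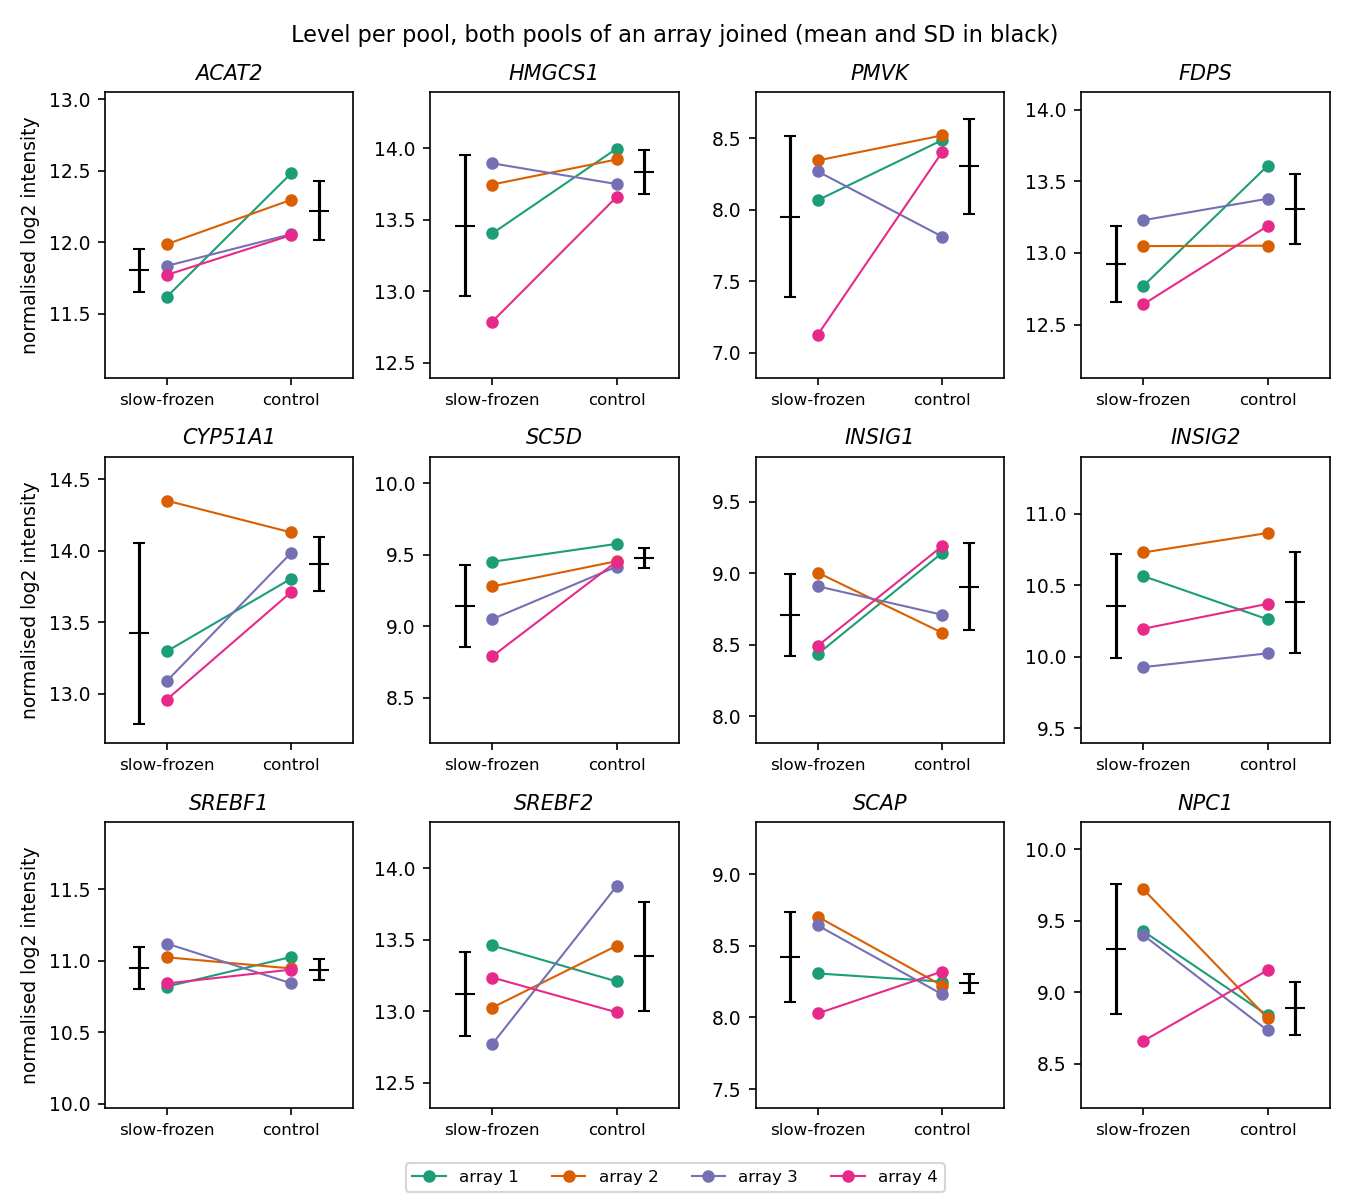
Normalised log2 intensity of 12 members in the 4 slow-frozen pools (left of each panel) and the 4 control pools (right), with lines joining the pools of 1 array and the mean and SD of each group in black; every panel spans 2 log2 units. Only in the ACAT2 panel do the slow-frozen pools all lie below the control pools, and in the NPC1 panel 3 of 4 lines fall towards the control.

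The enzymes from squalene to lanosterol begin the branch that makes sterols only. FDFT1, the squalene synthase, and SQLE, the squalene epoxidase and a rate-limiting step, gave -0.20 ± 0.23 and -0.29 ± 0.25 (SE, n = 4 each). The SQLE ratio was -0.88, 0.47, -0.01 and -0.73 on arrays 1 to 4, and that of FDFT1 was -0.72, 0.43, 0.08 and -0.58. In both, arrays 1 and 4 were low and array 2 was high, and both fitted ratios changed sign without array 1 (0.05 for SQLE and 0.09 for FDFT1). LSS, which closes the sterol rings, was at 0.18 ± 0.16, with its control reading of array 2 under the detection limit.

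Of the 8 enzymes from lanosterol to cholesterol 7 lay lower, with a median of -0.15. CYP51A1, the lanosterol demethylase, was the gene of the list with the most negative fitted ratio. Its levels were 13.30, 14.35, 13.09 and 12.96 in the slow-frozen pools, against 13.80, 14.13, 13.98 and 13.71 in the control pools. The slow-frozen pool of array 2 was the highest of all 8, and the other three slow-frozen pools lay under every control pool. The log2 ratio was -0.48 ± 0.17 (SE, n = 4; 0.715-fold; limma's unadjusted p = 0.0275, adjusted p = 0.9999), and another of its 3 probes was lower on all 4 arrays. The SD of the 4 array ratios was 0.50, and the moderated SE was 0.20 in the fit without the dye term.

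SC5D, a sterol desaturase near the end of the pathway, had slow-frozen levels of 9.45, 9.28, 9.05 and 8.79 and control levels of 9.58, 9.46, 9.42 and 9.45. Each slow-frozen pool lay under its partner, the 4 control pools differed by less than 0.2, and the groups just overlapped. The ratio was -0.33 ± 0.14 (SE, n = 4; limma's unadjusted p = 0.055), and it lay between -0.41 and -0.26 with any one array left out. HSD17B7, a sterol ketone reductase, was also below 0 on all 4 arrays, with ratios from -0.54 to -0.01 and a fitted ratio of -0.24 ± 0.16.

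The remaining enzymes of this stretch had fitted ratios near 0 or an uneven pattern. MSMO1, the oxidase of the sterol methyl groups, gave -0.81, 0.32, 0.38 and -0.82 on arrays 1 to 4, and its 4 probes ranged from -0.35 to 0.16. NSDHL, a sterol dehydrogenase, had the lowest ratio of the whole list on array 1, -0.98, and the highest on array 3, 0.95, so that its mean was 0.03 ± 0.25 (SE, n = 4). EBP, a sterol isomerase, ran from -0.69 on array 1 to 0.78 on array 3, with a mean of -0.00. DHCR7, which carries out a last reduction to cholesterol, had -0.03 ± 0.20, and TM7SF2, a sterol reductase, had -0.07 ± 0.17.

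**Figure D4:**
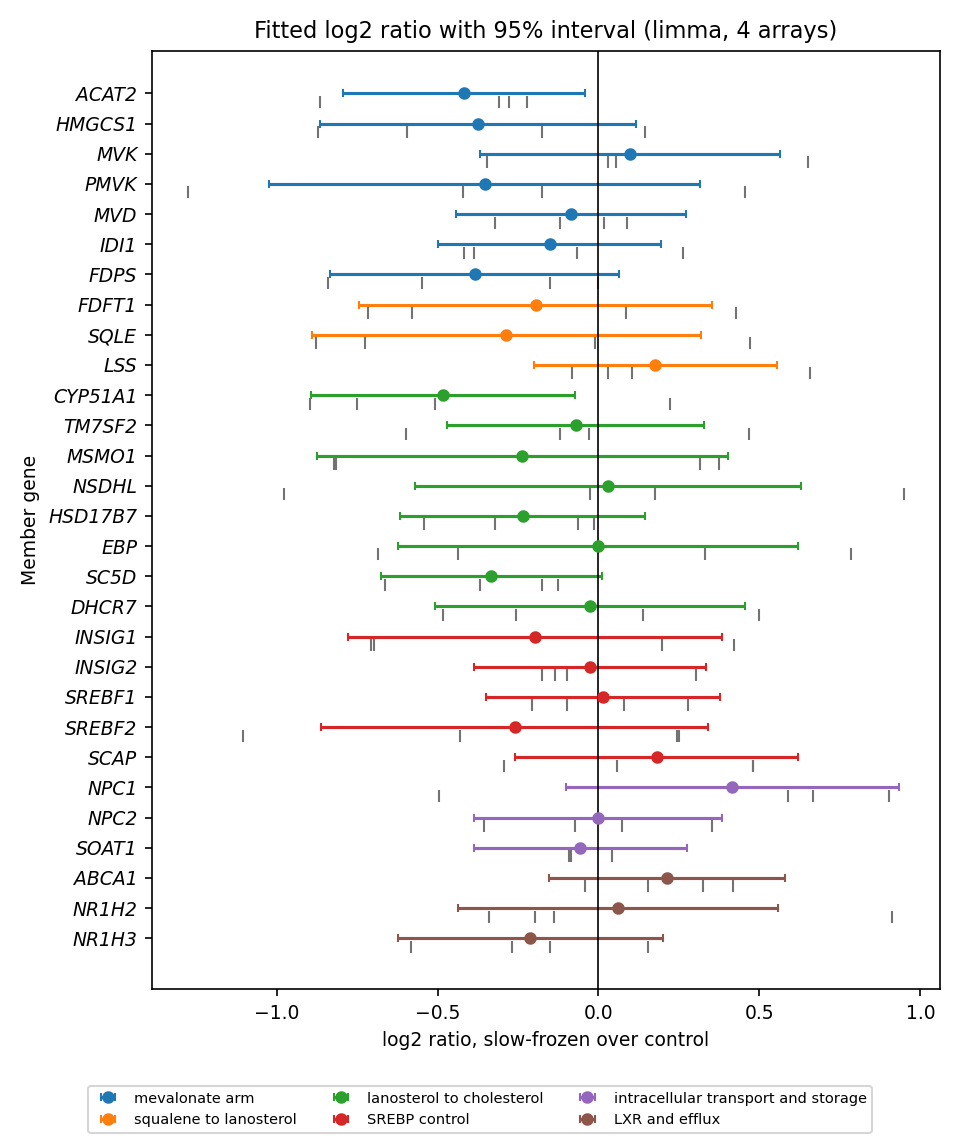
Fitted log2 ratio of slow-frozen over control with its 95% interval (limma, 4 arrays) for each of the 29 tested members, coloured by role, with grey ticks for the 4 array ratios. The intervals of ACAT2 (-0.79 to -0.04) and CYP51A1 (-0.89 to -0.07) lie below 0 before adjustment for the number of probes, and the intervals of all other tested members include 0.

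The 5 genes that govern SREBP had a median of -0.03, with 3 lower and 2 higher, and 0 of them had an unadjusted p under 0.05 in limma. INSIG1, itself a target of SREBP, had levels of 8.44, 9.004, 8.91 and 8.49 in the slow-frozen pools, against 9.14, 8.58, 8.71 and 9.19 in the control pools. The slow-frozen pool was the lower of its pair by about 0.7 on arrays 1 and 4 (-0.71 and -0.70) and the higher on arrays 2 and 3 (0.42 and 0.20), and the fitted ratio was -0.20 ± 0.24 (SE, n = 4). Of its other probes 1 gave -0.25 and 1 gave 0.05. INSIG2, the second of these retention proteins, had levels of 10.56, 10.73, 9.93 and 10.20 in the slow-frozen pools and 10.26, 10.87, 10.03 and 10.37 in the control pools, which overlapped fully, with a ratio of -0.03 ± 0.15.

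SREBF2, which encodes the SREBP most tied to cholesterol synthesis, had levels of 13.46, 13.03, 12.77 and 13.23 in the slow-frozen pools, against 13.21, 13.46, 13.87 and 12.99 in the control pools. By this probe it was higher on arrays 1 and 4 and lower on arrays 2 and 3, with a ratio of -1.10 on array 3. A second probe gave -0.14, 0.12, -0.91 and -0.51 on arrays 1 to 4, so that the 2 probes had the same sign on array 3 only. The fitted ratio of -0.26 ± 0.25 (SE, n = 4; limma's unadjusted p = 0.334) turned to 0.08 without array 3, and that of the second probe was -0.36. SREBF1, which encodes the SREBP more tied to fatty acid synthesis, had levels of 10.82, 11.03, 11.12 and 10.84 in the slow-frozen pools and 11.03, 10.95, 10.84 and 10.94 in the control pools. The groups overlapped fully, and its ratio of 0.01 ± 0.15 left an interval of -0.35 to 0.38. SCAP, the escort of SREBP, had levels of 8.31, 8.70, 8.64 and 8.03 in the slow-frozen pools, against 8.25, 8.22, 8.16 and 8.32 in the control pools, and a ratio of 0.18 ± 0.18.

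Among the genes that move and store cholesterol, NPC1 stood highest of all members. NPC1 and NPC2 hand cholesterol out of late endosomes and lysosomes. NPC1 levels were 9.43, 9.72, 9.40 and 8.66 in the slow-frozen pools, against 8.84, 8.82, 8.73 and 9.16 in the control pools. Arrays 1, 2 and 3 had the slow-frozen pool higher, by 0.59, 0.90 and 0.67, and array 4 had it lower (-0.49). The fitted ratio was 0.41 ± 0.22 (SE, n = 4; 1.33-fold; limma's unadjusted p = 0.0986), and it was 0.12 without array 3 and 0.70 without array 4. In the fit without array 3, array 4 had the weight of arrays 1 and 2 together, and in that without array 4, array 3 had it. NPC2 was at -0.00 ± 0.16, with a range of -0.36 to 0.35 over the arrays.

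SOAT1, which esterifies cholesterol for storage, varied least of all members between the pools of an array. Its ratios were 0.04, -0.09, -0.09 and -0.08, and its fitted ratio was -0.06 ± 0.14 (SE, n = 4). STARD4, a carrier of sterol between membranes, was not tested: its brightest probe was above the detection limit in 1 slow-frozen and 2 control readings of 4 each, and its other 2 probes were dimmer. The measured STARD4 levels averaged 7.06 ± 0.11 in slow-frozen pools and 7.06 ± 0.22 in control pools (SD, n = 4 each), which gives only an upper bound.

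The LXR receptors and the efflux pump held no common direction. ABCA1, which exports cholesterol from the cell and is an LXR target, gave 0.21 ± 0.15 (SE, n = 4), with 3 slow-frozen and 2 control readings above the detection limit. NR1H2 and NR1H3 encode the receptors LXR beta and LXR alpha. NR1H2 was at 0.06 ± 0.21, made up of 0.91 on array 3 and values between -0.34 and -0.14 on the rest. NR1H3 was at -0.21 ± 0.17, lower on arrays 1, 2 and 4, and its second probe gave 0.01.

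Probes of one gene did not always run the same way. The 52 tested member probes comprised 36 lower and 16 higher, against 8172 lower of the 16342 tested probes with a gene symbol. Of the 14 members with several tested probes, 7 had all of them on one side of 0 (ACAT2, CYP51A1, FDPS, HMGCS1, MVK, SREBF2 and TM7SF2), and 7 had probes on both sides. In each of ACAT2, FDPS, HMGCS1 and CYP51A1 the brightest probe had the most negative ratio.

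Other genes of cholesterol handling did not share the direction of the synthesis enzymes. Of 20 tested genes that act beside the members, such as lipoprotein receptors, esterases, proteases of SREBP and sterol carriers, 10 lay lower and 10 higher, with a median of 0.02. An unadjusted p under 0.05 in limma was met by 2 of them, both higher. LBR, a receptor of the nuclear lamina that is also a sterol reductase like TM7SF2, gave 0.53 ± 0.14 (SE, n = 4). Its ratios were -0.07, 0.14, 1.08 and 0.95 on arrays 1 to 4, so the large ones were on the arrays with Cy3 on the slow-frozen pool. The SD of the 4 ratios was 0.58, and the SE is from a fit with a dye term. MBTPS2, one of the proteases that free active SREBP, gave 0.49 ± 0.19, and was higher on arrays 2, 3 and 4. Its control reading of array 3, where its ratio was 0.79, was under the detection limit.

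Of 11 tested genes of fatty acid and glycerolipid synthesis that SREBP also drives, 8 lay lower and 3 higher, with a median of -0.14. GPAM, which starts the making of glycerolipids, was at -0.52 ± 0.14 (SE, n = 4; limma's unadjusted p = 0.0101, adjusted p = 0.9999) and lower on all 4 arrays. Its ratios were -0.06, -0.22, -1.05 and -0.74 on arrays 1 to 4, so the larger drops were on the arrays with Cy3 on the slow-frozen pool. The SD of these ratios was 0.46, and the SE is from a fit with a dye term. ACLY, which makes cytosolic acetyl-CoA from citrate, was at -0.33 ± 0.14 (limma's unadjusted p = 0.0617), lower on all 4 arrays, and its slow-frozen pools all lay below its control pools. The median of these genes was -0.05 on array 1 and -0.10 on array 4, against -0.30 on array 3, and 6, 5, 6 and 7 of the 11 lay lower on arrays 1 to 4. Of 12 tested genes that use isoprenoids for protein prenylation, dolichol or coenzyme Q, 5 lay lower and 7 higher (median 0.06), and PDSS2, a subunit that builds the tail of coenzyme Q, gave -0.30 ± 0.17.

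**Figure D5:**
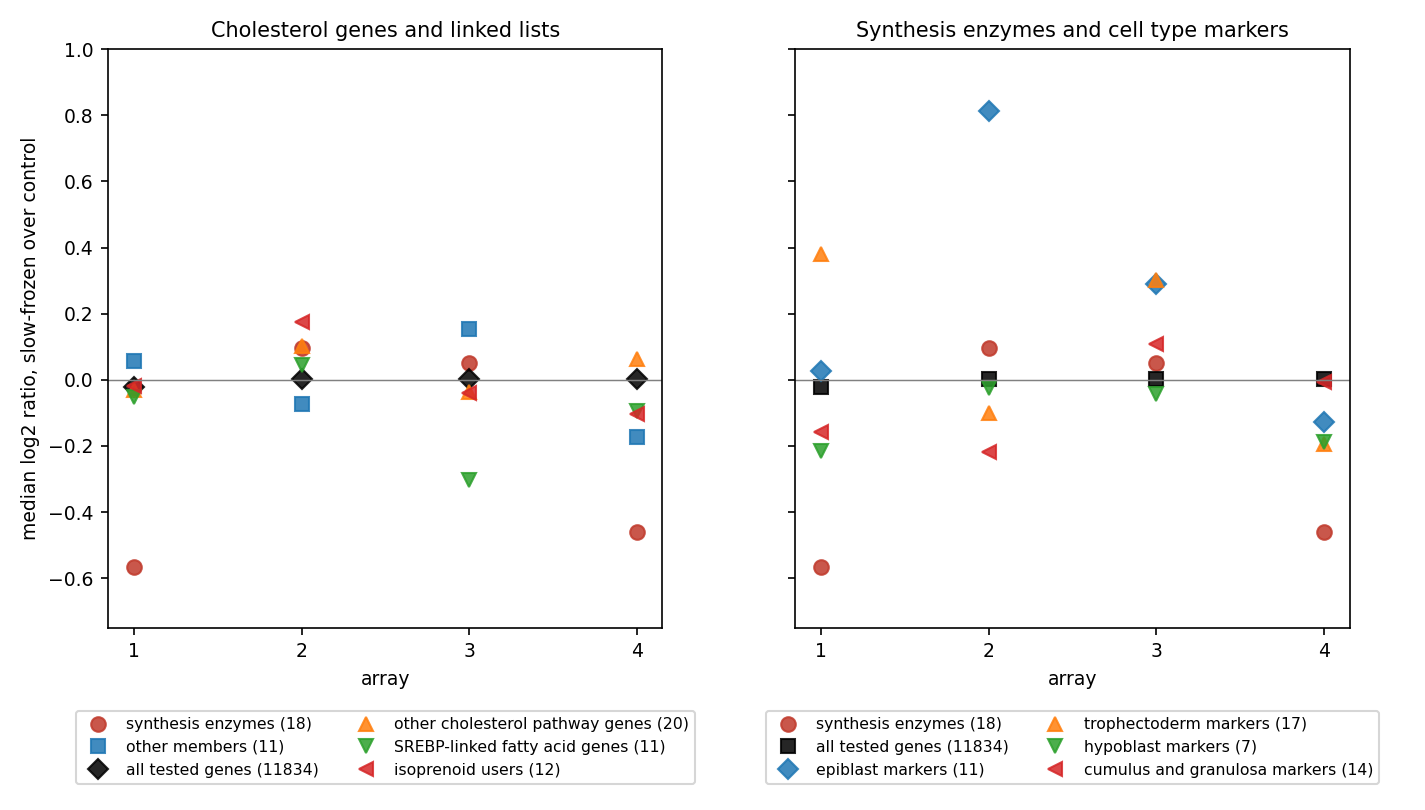
Median log2 ratio of slow-frozen over control on each array for the synthesis enzymes, the other members, linked gene lists (left) and markers of cell types of the blastocyst and of cumulus and granulosa cells (right), with the number of tested genes in brackets. The enzymes stand at -0.57 and -0.46 on arrays 1 and 4, and the epiblast markers stand highest on array 2, at 0.81.

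Markers of the cell types in a blastocyst were set beside these values, since pools can differ in their make-up. The defining trophectoderm markers CDX2 and GATA3 and the epiblast markers POU5F1 and SOX2 were above the detection filter. Of the epiblast markers, 11 of 14 were tested, 10 lay higher, and their medians were 0.03, 0.81, 0.29 and -0.13 on arrays 1 to 4. Their summed normalised intensity ran from 27500 to 31000 in slow-frozen pools and from 14600 to 30100 in control pools. Such a sum is carried by the brightest probes of a list, here mostly DPPA3, KLF4 and POU5F1. In the slow-frozen pool of array 2, NANOG (12.62) stood above POU5F1 (11.67). Single markers went different ways on an array. NANOG, an epiblast factor, had ratios of -2.18, 3.24, 2.59 and -0.39, and HNF4A, a hypoblast factor, had -2.74, 1.68, 2.26 and -1.13. LIN28B, another epiblast marker, had 0.54, 0.47, 0.12 and 1.38, and GATA4, another hypoblast marker, had -0.67, -0.58, -0.29 and 0.86. SOX2, PRDM14 and PDGFRA had the signs of NANOG and HNF4A on every array, and no other tested marker of either list did. Of the 11 epiblast markers 5 lay lower on array 1 and 6 on array 4. The single markers named were chosen after their values were seen, and the part of cell make-up in the values of the enzymes was not tested.

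The 7 tested of 11 hypoblast markers had medians of -0.21, -0.03, -0.04 and -0.19 on arrays 1 to 4, with 4 lower, and summed intensities of 35300 to 74800 in slow-frozen and 38500 to 78600 in control pools. SOX17 and FOXA2 were below the filter. The 17 tested of 18 trophectoderm markers had 12 higher, medians of 0.38, -0.10, 0.30 and -0.19, and sums of 191000 to 255000 in slow-frozen and 174000 to 277000 in control pools. Of the 16 markers of cumulus and granulosa cells 14 were tested, 9 lay lower, and their sums were 5230 to 7050 in slow-frozen and 5820 to 8330 in control pools, with HAS2 and AMH below the filter. Whether any of these lists had a part in the cholesterol values was not tested.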

How the data were processed

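The authors extracted RNA from pools of blastocysts, amplified it by in vitro transcription, coupled it to Cy3 or Cy5 and hybridised 4 arrays on 1 slide of the EmbryoGENE bovine platform. The labels supplied the groups and the dyes. They state 7 embryos in a pool, with morulae collected on day 6 and blastocysts on day 7. The methods allow smaller pools, and place the morulae on day 7 after fertilization and the blastocysts later. The files do not settle which holds. By the methods, the 4 pairs came from separate fertilization cycles.

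The deposited scanner files hold the median intensity of each spot and of its local background per channel, neither corrected nor normalized. Their 14 last lines, which summarise columns, were dropped. The deposited value table is on a log2 scale; its columns (medians -0.0023, 0.00051, -0.0023 and 0.0017) correlated with log2 Cy5 over Cy3 at 0.993, 0.985, 0.938 and 0.972, and it was taken to hold centred ratios of the dyes. The methods describe subtraction of the background, with negative values replaced, then lowess and quantile steps, without naming this table. Of its columns 0 were unused.

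Intensities were corrected by normexp (offset 50), normalized by loess within arrays with control spots at weight 0, expressed as slow-frozen over control, and modelled in limma 3.58.1 under R 4.3.3 with a treatment and a dye term, eBayes and Benjamini-Hochberg adjustment over all tested probes. A probe was tested when at least 4 of 8 readings passed the 95th percentile of the 153 negative control spots. Levels per pool were taken after loess and Aquantile normalization between arrays. SEs are moderated standard errors of that term. No channel had more than 21 probes at an intensity of 65000 or above. Of the 43794 probes 21790 had 1 gene symbol, and 1524 symbols were updated through RefSeq synonyms, MSMO1 and SC5D among the members. Per-array and per-pool values are given for members with an unadjusted p under 0.05 or an absolute log2 ratio of at least 0.3, for the 5 SREBP control genes, and in part for others. The members and lists were chosen with earlier results of these data known. Other settings of background, normalization, filter, fit and probe choice, the deposited table and leaving out each array were tried. The fit was tested on simulated data. Promoter motifs were not searched, because no promoter sequences were at hand. Figures were drawn with matplotlib 3.10.9.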

Additional observations from a re-analysis of the deposited data

Results flagged for a closer look

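In a group of 4 values, a value was singled out when its gap to the nearest other took a larger share of the whole range than Dixon's critical value for 4 values, which chance does in about 1 of 20 groups. Among 87 groups (the ratios, the slow-frozen levels and the control levels of 29 members), 7 met this. For ACAT2 the array 1 ratio of -0.86 stood below the other three (-0.31 to -0.22). The INSIG2 ratio of array 1 was 0.30, above -0.17 to -0.10 on the rest. The SOAT1 ratio of array 1 was 0.04, with the rest between -0.09 and -0.08, a narrow range in which a small gap suffices. The NR1H2 ratio of array 3 was 0.91, above -0.34 to -0.14. In levels, MVD reached 8.6 in the slow-frozen pool of array 2, above 7.93 to 7.97, PMVK was at 7.81 in the control pool of array 3, below 8.40 to 8.52, and NR1H3 was at 8.45 in the control pool of array 4, above 8.30 to 8.32.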

How the results depend on the processing

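No setting gave any member an adjusted p under 0.05 in limma. Fitted ratios of ACAT2, CYP51A1, FDPS, HMGCS1, SC5D, HSD17B7, IDI1, NR1H3, SOAT1 and NPC1 kept their sign in all 14 alternatives. Those of LSS and ABCA1 kept it in the 13 alternatives that tested them. The number of members lower with an unadjusted p under 0.05 in limma was 2 in the main fit, where 1.01% of all tested genes were. It was 7 with median centring in place of loess, where 71.9% of all tested genes lay lower, against 51% in the main fit. It was 0 with an intensity trend and robust spread, 1 with all 8 readings required above the limit, and 0 to 4 with an array left out. In the fit without array 4, 1 member lay higher at that p, against 0 in the other array omissions. The share of all tested genes past that p was not counted outside the main fit. Members lower on all 4 arrays numbered 2, against 4, when all tested probes of a gene were averaged. Synthesis enzymes lying lower ranged from 9 to 17 of 18 over the array omissions. Median centring moved the median of all genes to -0.13 and that of the members to -0.34 (the enzymes on array 3 to -0.71), and turned SREBF1 (-0.26), NR1H2 (-0.25), NSDHL (-0.26) and MVK (-0.12) below 0. EBP and NPC2 turned above 0 with plain subtraction (0.0125 and 0.00195), no background correction (0.0135 and 0.00291), quantile normalization (0.00895 and 0.00379, with DHCR7 at 0.0168) and the deposited table (0.0125 and 0.00194). With probes averaged, INSIG2 was 0.0314 and NSDHL -0.0256. Over the array omissions the ranges of the genes that changed sign were -0.195 to 0.0538 for TM7SF2, -0.27 to 0.22 for DHCR7, -0.478 to 0.0856 for INSIG1, -0.623 to 0.0514 for SQLE, -0.31 to 0.30 for EBP, -0.536 to 0.0627 for MSMO1, -0.482 to 0.0909 for FDFT1, -0.0806 to 0.107 for SREBF1, -0.26 to 0.32 for NSDHL, -0.136 to 0.0834 for INSIG2, -0.187 to 0.018 for MVD, -0.11 to 0.11 for NPC2, -0.22 to 0.34 for NR1H2, -0.15 to 0.35 for MVK, -0.0118 to 0.375 for SCAP, -0.597 to 0.0762 for SREBF2 and -0.787 to 0.0789 for PMVK. With an array left out, its dye orientation rests on 1 array, which then has the weight of 2. The causes of these changes were not tested. The ratio within an array pairs its pools, so every fit was a paired one. The number of arrays limits the precision, and dim probes (ABCA1, LSS, PMVK) lie near the detection limit.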
